A study of Mus musculus with 13 samples.

Results

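The CC chemokine genes examined here are 10 genes of mouse chromosome 11, namely Ccl1, Ccl2, Ccl3, Ccl4, Ccl5, Ccl6, Ccl7, Ccl8, Ccl9 and Ccl11. They were chosen by symbol, and 6 of the 10 carried a peak in at least 1 of 6 peak lists. The 6 lists named 18562 genes of any type, beside 21900 protein-coding genes in RefSeq. A peak in at least 1 list was therefore common, and its share of protein-coding genes was not computed. The lists came from chromatin immunoprecipitation sequencing (ChIP-seq) of 4T1 cells, a metastatic mouse mammary carcinoma line of BALB/cJ origin, with 1 library for each of 6 conditions. Histone H3 trimethylated at lysine 4 (H3K4me3) and at lysine 27 (H3K27me3) was profiled in sg-Ctrl cells, which carried a non-targeting guide RNA, and in Nup210 KO cells, in which CRISPR/Cas9 with a guide against Nup210 had been used and which were grown from a single cell, so that 1 clone stood for the knockout. NUP210, a membrane protein of the nuclear pore, and the nuclear pore complex (NPC), recognised by the antibody MAb414, were profiled in sg-Ctrl cells. Each list gave, for every peak, the reads of the ChIP library, the reads of an IgG control library and the fold between them. With 1 library per condition no difference between conditions could be tested against replicate spread, and the 95% intervals given below cover counting error alone. H3K4me3 at the start of Nup210 itself was 321 scaled reads per kb in the sg-Ctrl library and 242 in the Nup210 KO library (the unit is explained with Ccl2), and a peak at the start does not report on the edit, so the lists do not check the knockout. RNA-seq samples of the same series were not analysed here.

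CC chemokines are small secreted proteins that draw leukocytes along a concentration gradient by binding G-protein-coupled receptors. Mouse chromosome 11 holds a large group of their genes. Ccl2, Ccl7, Ccl8 and Ccl12 encode monocyte chemoattractant proteins, Ccl11 encodes eotaxin, which attracts eosinophils, and Ccl1 encodes a ligand of Ccr8. Ccl3 and Ccl4 encode macrophage inflammatory proteins, Ccl5 encodes a chemoattractant of T cells and monocytes, and Ccl6 and Ccl9 encode myeloid chemoattractants that bind Ccr1. H3K4me3 marks the start sites of active or poised genes, and H3K27me3, deposited by Polycomb repressive complex 2, forms broad domains over silent genes.

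The genes fell into 2 blocks (coordinates on GRCm38.p6). The block nearer the centromere, called proximal here, ran over 144 kb at chr11:82035577-82179812 and held Ccl2, Ccl7, Ccl11, Ccl8 and Ccl1 in that order. The distal block ran over 139 kb at chr11:83525778-83664683 and held Ccl5, Ccl9, Ccl6, Ccl3 and Ccl4. Between the blocks lay 1346 kb. Ccl12, at chr11:82101845-82103399 between Ccl11 and Ccl8, was not one of the 10 genes, and no list held a peak for it.

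Promoter sequence is shown for 3 of the 5 members whose promoter was in the RefSeq table, because no H3K4me3 peak lay at these starts. Each line gives the 250 bases before the start site on the coding strand (GRCm38.p6), with CG and TATAAA (either strand) in capitals.
Ccl8: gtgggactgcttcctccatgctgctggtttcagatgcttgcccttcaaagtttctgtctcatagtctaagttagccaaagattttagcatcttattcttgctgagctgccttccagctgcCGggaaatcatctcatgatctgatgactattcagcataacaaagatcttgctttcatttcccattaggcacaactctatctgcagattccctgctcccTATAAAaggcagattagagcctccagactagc
Ccl1: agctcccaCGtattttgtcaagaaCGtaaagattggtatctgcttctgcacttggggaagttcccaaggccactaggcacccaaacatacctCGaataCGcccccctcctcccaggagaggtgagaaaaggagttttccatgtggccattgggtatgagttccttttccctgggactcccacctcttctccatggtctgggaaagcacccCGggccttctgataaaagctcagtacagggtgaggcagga
Ccl3: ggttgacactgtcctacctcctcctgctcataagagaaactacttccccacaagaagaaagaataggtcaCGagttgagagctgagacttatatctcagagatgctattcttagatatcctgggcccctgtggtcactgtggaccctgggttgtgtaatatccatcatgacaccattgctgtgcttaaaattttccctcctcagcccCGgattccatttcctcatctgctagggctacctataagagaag
The Ccl8 sequence held 1 CG pair and 1 TATAAA, which began 32 bases before the start. Ccl1 held 5 CG pairs and Ccl3 held 2, as did Ccl6 and Ccl9. Ccl9 also held 3 matches to TATAAA over both strands, 2 of which overlapped. Its match on the coding strand began 92 bases before the start. Of 32841 promoter stretches of the same length, 12.4% held TATAAA, 18.8% had as few CG pairs as Ccl8, 29.0% as few as Ccl3, Ccl6 and Ccl9, and 49.6% as few as Ccl1. The median was 6 CG pairs over all promoters, 16 over the 9078 genes with an H3K4me3 peak in sg-Ctrl cells and 3 over the 17940 genes without one. The motif TGANTCA of AP-1, on either strand, was found in Ccl9 and in none of the other 4, against 6.75% of all promoters. All 5 matched members lay below the all-promoter median for CG, and Ccl1 lay above the median of the genes without a peak.

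Few of the 10 genes carried H3K4me3. In sg-Ctrl cells Ccl2 and Ccl5 were listed, 2 of 10, against 52.2% of 21900 protein-coding genes, and in Nup210 KO cells Ccl5 alone was listed, 1 of 10, again against 52.2%. The H3K4me3 lists paired a gene with any peak within 4 kb of its start site. Ccl1, Ccl3, Ccl4, Ccl6, Ccl7, Ccl8, Ccl9 and Ccl11 had no such peak in either library.

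Ccl2, the monocyte chemoattractant, had a 3-kb H3K4me3 peak in sg-Ctrl cells at chr11:82033201-82036200, which covered its start site. The peak held 119 ChIP reads (95% interval 98.6 to 142) and 56 IgG reads. Divided by the size of the ChIP library relative to the IgG library, this was 37.4 scaled reads per kb of peak (31.0 to 44.7), against 18.7 IgG reads per kb, a fold of 2.00 with a SICER false discovery rate (FDR) of 3.57e-12. It was among the weakest peaks in the library, since 0.136% of H3K4me3 peaks had a lower density and 0.517% a lower fold. The median H3K4me3 peak of sg-Ctrl cells held 497 scaled reads per kb.

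No H3K4me3 peak of the Nup210 KO library was listed for Ccl2, and the nearest listed one lay 727 kb from its start, at Cct6b and Zfp830. Listing in sg-Ctrl cells but not in KO cells occurred for 0.954% of protein-coding genes. A KO peak of the sg-Ctrl density would have held 151 reads and the IgG level alone 75.5. Of 10854 KO peaks, 37 had a density at or below that of the Ccl2 peak in sg-Ctrl cells, and of 4729 KO peaks of 2 to 4 kb, 17 did. Peaks as weak as the one at Ccl2 were thus listed in the KO library but were rare there, and the reads of the KO library over Ccl2 are not given in the lists, so the size of any difference was not measured.

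Ccl5, which attracts T cells and monocytes, was the one member with an H3K4me3 peak in both libraries. In sg-Ctrl cells the peak was 2 kb wide, at chr11:83533601-83535600, with 864 reads (807 to 924) and 41 IgG reads, or 407 scaled reads per kb (381 to 435) and a fold of 19.9. In Nup210 KO cells it was 2.6 kb wide, at chr11:83533201-83535800, with 1162 reads (1096 to 1231) and 41 IgG reads, or 332 scaled reads per kb (313 to 351) and a fold of 21.0. Its density was far above that of the Ccl2 peak, but it did not cover the Ccl5 start. It began 3.08 kb upstream of the start in sg-Ctrl cells and 2.68 kb upstream in KO cells, and reached 5.08 kb and 5.28 kb. The RefSeq long noncoding RNA gene Gm32650, at chr11:83511289-83546540, spans both peaks, so the mark cannot be assigned to Ccl5 alone. Counting only peaks that covered the start site left Ccl2 in sg-Ctrl cells, 1 of 10 members against 49.0% of protein-coding genes, and 0 of 10 in KO cells.

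The Ccl5 density in KO cells was -0.30 relative to sg-Ctrl cells on the log2 scale (-0.42 to -0.17), while the median of 12197 genes was -0.50, so that Ccl5 lay 0.20 above that median and 69.3% of genes lay below it. A ratio of 0.5 or less was found for 9.66% of genes, and Ccl5 was not among them. The sign of the Ccl5 ratio turned with the scaling, to 0.13 when the reads of shared peaks set the scale and to 0.05 with unscaled reads, and with the same scalings the all-gene median moved to -0.08 and -0.15.

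**Figure D1:**
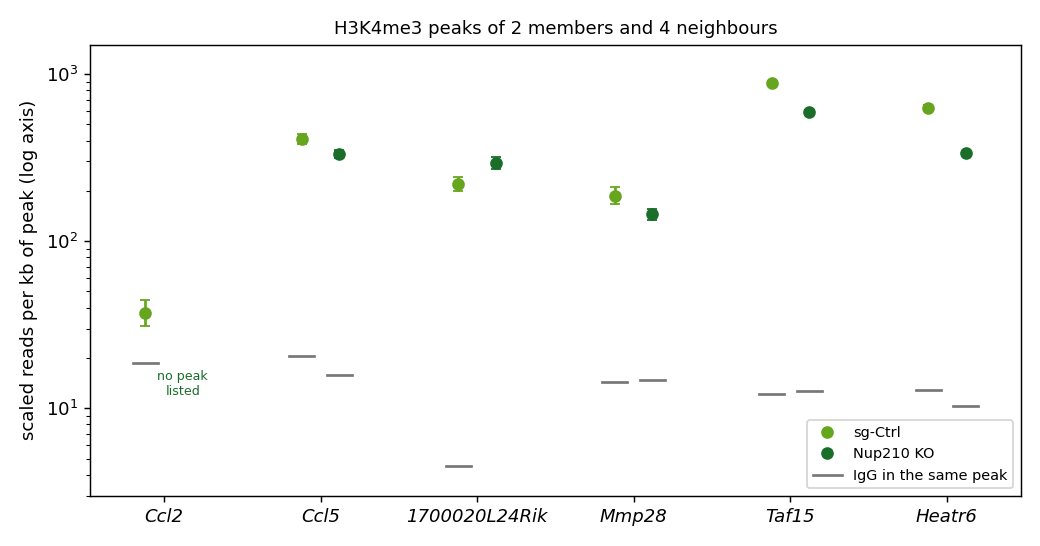
H3K4me3 density in scaled reads per kb of peak (log axis) for Ccl2, Ccl5 and the 4 neighbouring genes with a peak in both libraries. Points are single libraries, bars are 95% Poisson intervals and grey lines are the IgG reads per kb of the same peak, and no line is drawn for the KO peak of 1700020L24Rik, which held no IgG read. The Ccl2 peak at 37.4 sits close to its IgG level of 18.7, while the Ccl5 peaks at 407 and 332 lie far above theirs.

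Within 200 kb of the distal block 4 other genes had an H3K4me3 peak in both libraries, and of these Taf15 alone was above the library median of scaled reads per kb in both (497 in sg-Ctrl cells and 355 in KO cells). The gene 1700020L24Rik had 220 scaled reads per kb in sg-Ctrl cells and 294 in KO cells, a log2 ratio of 0.42 (0.24 to 0.59). Mmp28, a matrix metalloproteinase, went from 187 to 144 (-0.37, interval -0.58 to -0.16), Taf15, an RNA-binding protein, from 889 to 591 (-0.59, -0.65 to -0.53), and Heatr6 from 630 to 336 (-0.91, -0.98 to -0.84). Each ratio was per kb of peak, and peak width differed between libraries. The Mmp28 peak was 1.4 kb wide with 278 reads in sg-Ctrl cells and 3 kb wide with 584 reads in KO cells. That of 1700020L24Rik was 2 kb and 1.6 kb wide. The density ratios of 3 of these 4 genes were below 0, their median was -0.48, and none reached 2-fold. Ratios of total reads are not given for them. The Ccl5 ratio lay inside their range. Within 200 kb of the proximal block the H3K4me3 lists held no gene other than Ccl2.

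H3K27me3 was listed on 1 member in sg-Ctrl cells, Ccl11, against 19.4% of protein-coding genes. In Nup210 KO cells it was listed on 3 members, Ccl7, Ccl11 and Ccl4, against 20.0% of protein-coding genes. Because these lists pair peaks with gene bodies and the members are short, the shares were also taken over the 5714 protein-coding genes of up to 6 kb, and were 17.6% and 21.0%. Ccl4 and Ccl7 were listed in KO cells alone, 2 of 10, against 3.38% of protein-coding genes and 5.32% of the short ones. Of 21900 protein-coding genes, 4247 were listed in sg-Ctrl cells, 4381 in KO cells and 741 in KO cells alone. Genes listed in sg-Ctrl cells alone therefore occurred as well. Relative to its control, the H3K27me3 library of KO cells had 3.16 times the reads of that of sg-Ctrl cells. The part of depth in the added peaks of Ccl4 and Ccl7 was not tested.

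On Ccl11 the H3K27me3 island of sg-Ctrl cells was 11 kb long, at chr11:82050001-82061000, with 236 reads (207 to 268), 153 IgG reads and a fold of 1.82 at an FDR of 2.43e-17. The island of KO cells was 9 kb long, at chr11:82054001-82063000, with 557 reads (512 to 605), 145 IgG reads and a fold of 1.44 at an FDR of 4.07e-16. These shared 7 kb, the sg-Ctrl island covered 61.8% of the gene body and the KO island all of it. The densities were 25.3 (22.2 to 28.8) and 23.1 (21.2 to 25.1) scaled reads per kb, a log2 ratio of -0.13 whose interval of -0.35 to 0.09 held 0. The eotaxin gene thus carried a weak H3K27me3 island in both libraries, with no difference in density beyond counting error.

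Ccl7 lay in an H3K27me3 island of 9 kb in KO cells, at chr11:82040001-82049000, which covered the whole gene. This island held 498 reads (455 to 544) and 132 IgG reads, or 20.7 scaled reads per kb (18.9 to 22.6), at a fold of 1.41 and an FDR of 1.98e-13. It was a weak island, since 7.12% of the KO H3K27me3 peaks had a lower density and 16.0% a lower fold. It was separated by 5 kb from the Ccl11 island of the same library. In sg-Ctrl cells the Ccl11 island stopped 2.48 kb short of Ccl7. Ccl2 itself was not listed, and the nearest listed island lay 12.5 kb from it in sg-Ctrl cells and 2.55 kb in KO cells.

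**Figure D2:**
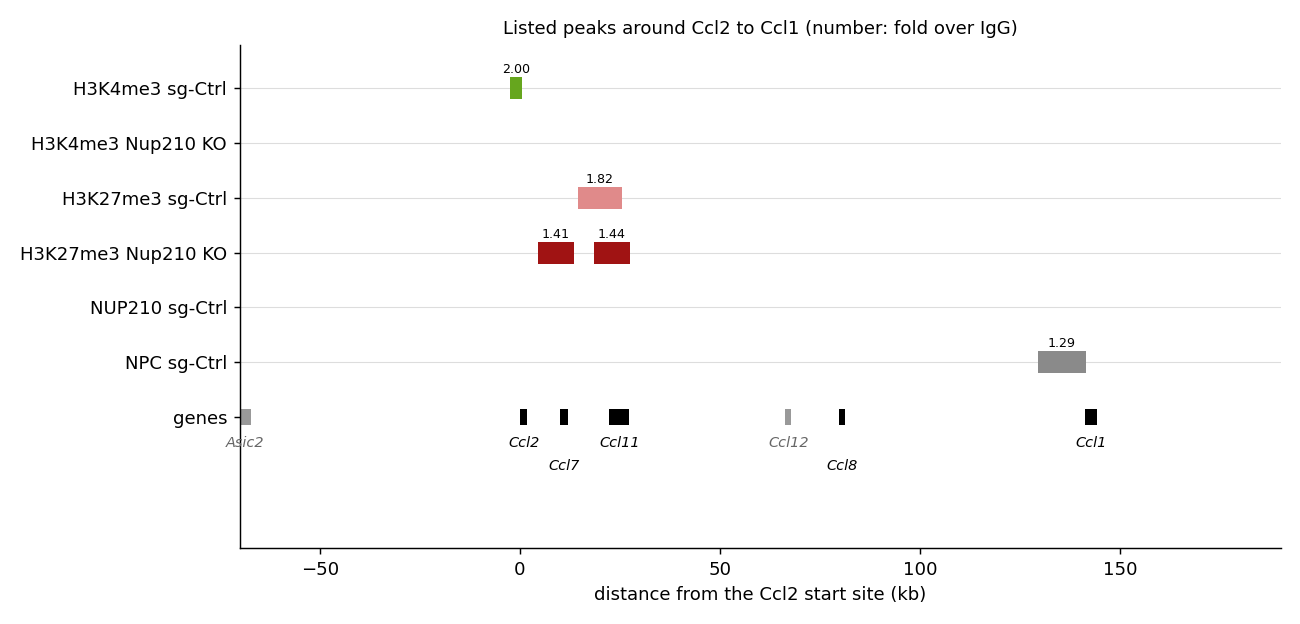
Listed peaks over the proximal block by library, against distance from the Ccl2 start site in kb. Bars span each peak, the number above a bar is its fold over IgG, and black boxes are members. An H3K4me3 peak, at 2.00-fold, covers the Ccl2 start in sg-Ctrl cells, and the KO H3K27me3 islands lie on Ccl7 at 1.41-fold and Ccl11 at 1.44-fold.

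The widest island on a member was that on Ccl4, which encodes a macrophage inflammatory protein. In KO cells it ran for 51 kb, at chr11:83659001-83710000, to Wfdc17 and Wfdc18, which encode whey acidic protein domain proteins. It began 3.58 kb before Ccl4 as placed in the lists and covered the whole of that gene model. The RefSeq model of Ccl4 is longer, at chr11:83648624-83664683, and the island overlapped 5.68 kb of it. This island held 4319 reads (4191 to 4450) and 669 IgG reads, or 31.6 scaled reads per kb (30.7 to 32.6), at a fold of 2.41 and an FDR listed as 0. In sg-Ctrl cells the island of Wfdc17 and Wfdc18 was 20 kb long, at chr11:83692001-83712000, with 478 reads, 225 IgG reads, 28.2 scaled reads per kb (25.8 to 30.9) and a fold of 2.51. That island stopped 27.3 kb from Ccl4. The libraries shared 18 kb of island, and the KO island reached 33 kb further towards Ccl4 while the sg-Ctrl island reached 2 kb further the other way.

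The listed island was therefore 2.55 times as wide in KO cells. Its density differed by 0.17 on the log2 scale (0.03 to 0.30), or by 0.04 when the reads of shared peaks set the scale. Of 4940 islands that each overlapped a single island of the other library, 469, or 9.49%, were wider in KO cells by at least as much, and the median width ratio was 1.01. Of the KO islands, 15.8% were at least as wide. Ccl3, next to Ccl4 in the block, was not listed. Its nearest listed H3K27me3 island lay 42.6 kb away in sg-Ctrl cells and 9.62 kb away in KO cells. Whether reads of the sg-Ctrl library were raised over Ccl4 without reaching the caller's threshold was not tested, since the lists hold no reads outside peaks. Islands that met no gene are also missing from the lists, so separate sg-Ctrl islands between Ccl4 and Wfdc17 could have gone unseen.

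**Figure D3:**
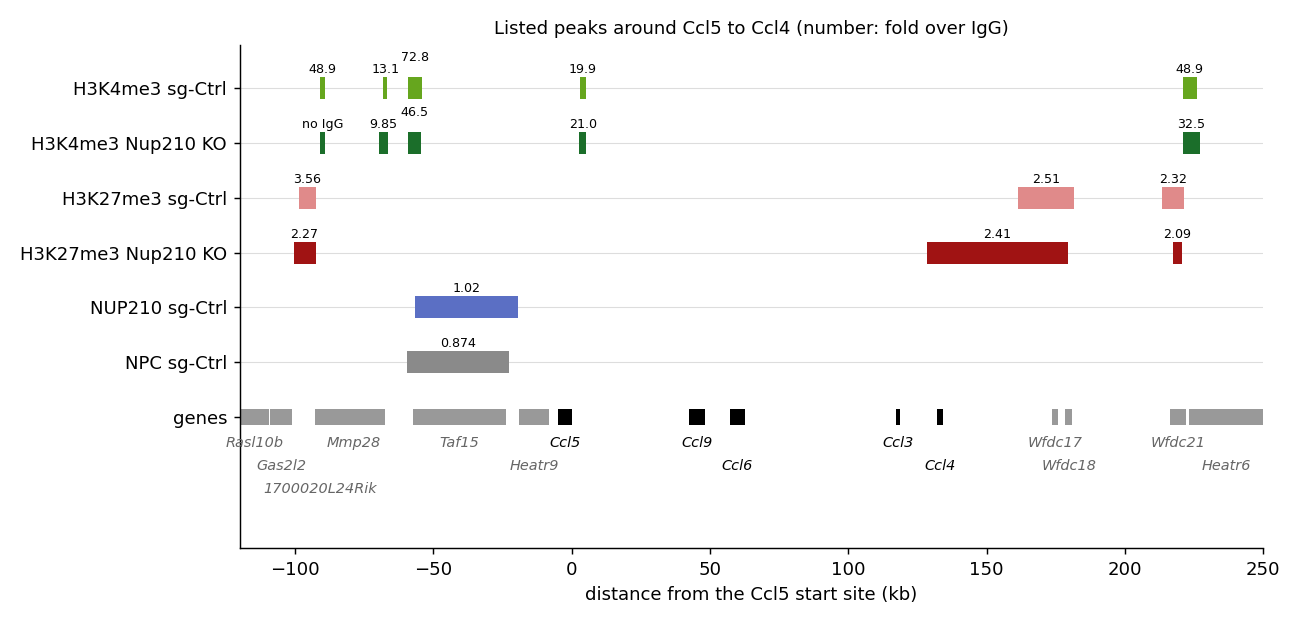
Listed peaks over the distal block by library, against distance from the Ccl5 start site in kb. Bars span each peak, the number above a bar is its fold over IgG ("no IgG" where the control had no read), black boxes are members and grey boxes are other protein-coding genes, with Wfdc21 as the current symbol of 1100001G20Rik. The KO H3K27me3 island at 2.41-fold runs from Ccl4 to Wfdc18, while the sg-Ctrl island at 2.51-fold begins 27.3 kb past Ccl4.

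Over the block and 50 kb on each side, listed H3K27me3 covered 11 kb in sg-Ctrl cells and 18 kb in KO cells at the proximal block, and 20 kb and 51 kb at the distal block. The mean densities over these lengths were 25.3 and 21.9 scaled reads per kb at the proximal block and 28.2 and 31.6 at the distal block. With 200 kb on each side the lengths were 27 and 29 kb, and 34 and 62 kb. All these lengths leave out islands that met no gene, which are not in the lists. Asic2, an acid-sensing ion channel gene to the left of the proximal block, had a 16-kb island in sg-Ctrl cells and islands of 7 and 4 kb in KO cells. At the other end, 1100001G20Rik had an 8-kb island in sg-Ctrl cells and a 3-kb island in KO cells, at 29.8 and 32.8 scaled reads per kb. The island of 1700020L24Rik, to the left of the distal block, was 6 kb long in sg-Ctrl cells and 8 kb long in KO cells, at 35.6 and 25.8 scaled reads per kb. Island length near the blocks thus differed in both directions.

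**Figure D4:**
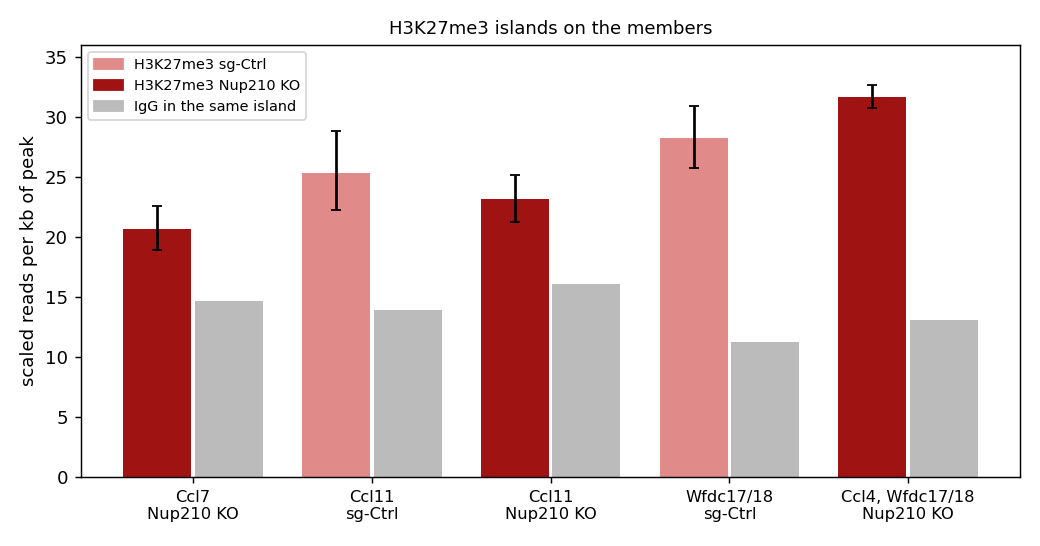
H3K27me3 density in scaled reads per kb of peak for the islands on Ccl7, Ccl11 and Ccl4 and for the sg-Ctrl island on Wfdc17 and Wfdc18. Coloured bars are single libraries with 95% Poisson intervals, and grey bars are IgG reads per kb of the same island. The Ccl7 island at 20.7 is the lowest, and the Ccl4 island at 31.6 the highest.

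NUP210 was listed on 0 of the 10 members, against 25.6% of protein-coding genes and 17.2% of those of up to 6 kb. These are shares of listed genes and not of enriched ones. The median NUP210 peak had a fold of 1.19, and the list held peaks below their IgG level, such as that on Acaca at 0.992. Shares at a stricter FDR were not computed. The nearest listed NUP210 peaks to the proximal block were 551 kb to its left and 579 kb to its right. The left one, on Asic2, had a fold of 1.08 at an FDR of 0.162. That to the right, on Cct6b and Zfp830, had a fold of 1.14. The distal block had a NUP210 peak 14.8 kb to its left, on Taf15, which held 1053 reads and 1020 IgG reads, a fold of 1.02 at an FDR of 0.298. Further out, Ap2b1 had NUP210 peaks at folds of 1.63 and 1.25. On the other side the nearest listed peak lay 518 kb away, on Acaca. The list leaves out peaks that met no gene, and the paper places most NUP210 peaks in intergenic regions. Nearer peaks may exist that are not shown here. No NUP210 peak on a gene body was therefore listed inside either block, and the closest one, on Taf15, was near its IgG level.

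The NPC antibody gave a peak on 1 member, Ccl1, against 23.4% of protein-coding genes and 14.1% of the short ones. The NPC list also held peaks below their IgG level, such as that on Taf15 at a fold of 0.874, and these shares count them. The Ccl1 peak was 12 kb long, at chr11:82165001-82177000, and held 222 reads (194 to 253) and 285 IgG reads, or 30.5 scaled reads per kb (26.6 to 34.8), a fold of 1.29 at an FDR of 0.000484. It overlapped 335 bp at the 3' end of Ccl1, 10.6% of the gene, and ended 2.81 kb short of the start site. The peak thus lay mainly beyond the gene. Its fold was above the library's median of 1.10, but its density was below the median of 38.7, and 4.92% of NPC peaks had a lower one.

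**Figure D5:**
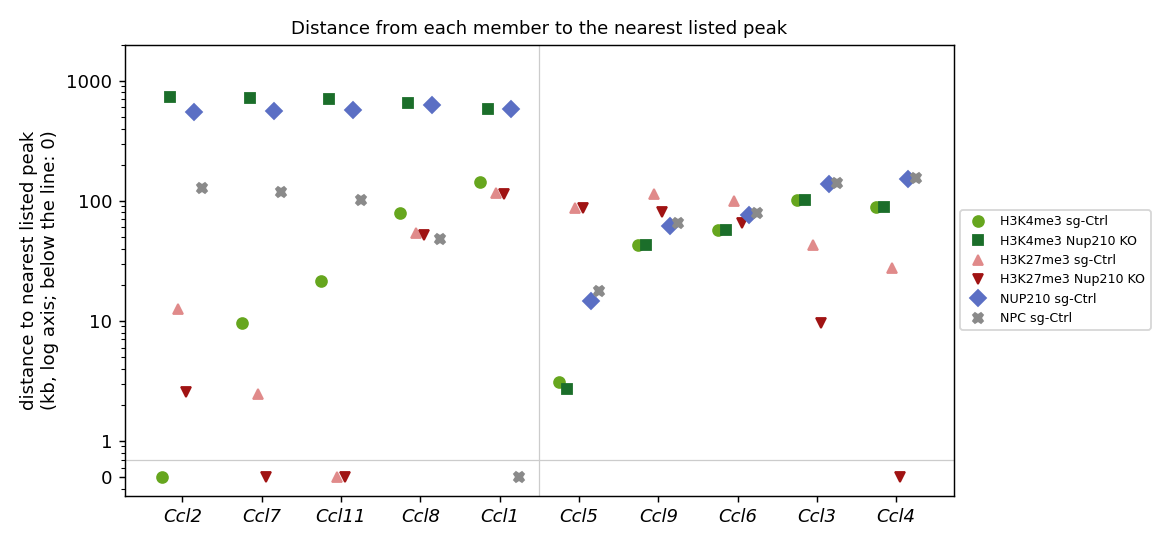
Distance in kb (log axis) from each member to the nearest listed peak of each library, measured from the start site for H3K4me3 and from the gene body otherwise. Members run in genome order, the vertical line separates the proximal from the distal block, and points below the horizontal line are at 0. The nearest listed NUP210 peaks lie between 14.8 kb from Ccl5 and 630 kb from Ccl8, and peaks that met no gene are not in the lists. Ccl3, Ccl5, Ccl6, Ccl8 and Ccl9 have no point at 0 (the listed H3K4me3 peaks of Ccl5 lie upstream of its start).

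Ccl3, Ccl6, Ccl8 and Ccl9 were in none of the 6 lists, and the share of all protein-coding genes in none was not computed. The Ccl8 body lay 54.2 kb from the nearest listed H3K27me3 island in sg-Ctrl cells and 52.2 kb in KO cells. It lay 48.2 kb from the NPC peak of Ccl1. Ccl9 and Ccl6 lay 80.4 and 65.9 kb from the KO island of Ccl4. No listed H3K4me3 peak lay closer to their starts than that of Ccl5, at 43.0 kb from Ccl9 and 57.5 kb from Ccl6 in sg-Ctrl cells. These members were thus without a listed peak of any kind at these distances, which does not show that the marks were absent.

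Among 11 CC and CX3C chemokine genes elsewhere in the genome, H3K4me3 was listed on 2 in both libraries, against 52.2% of protein-coding genes. Ccl25, which attracts thymocytes, had 998 and 755 scaled reads per kb, a log2 ratio of -0.40, and Cx3cl1, or fractalkine, had 446 in both, a ratio of 0.00. The Ccl25 peak was 5.2 kb wide in sg-Ctrl cells and 7.2 kb wide in KO cells. H3K27me3 was listed on Ccl28 in both libraries and on Ccl20, the ligand of Ccr6, in KO cells alone, in an island of 170 kb at a fold of 2.84, where 3.38% of protein-coding genes were listed in KO cells alone. Over all protein-coding genes H3K27me3 was listed for 19.4% in sg-Ctrl cells and 20.0% in KO cells. NUP210 was listed on Ccl20 at a fold of 1.12, against 25.6% of protein-coding genes listed.

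Of 13 genes of chemokine receptors, H3K27me3 was listed on 6 in sg-Ctrl cells and 5 in KO cells, with Ccr2, Ccr3, Ccr6 and Ccr9 in both, Ccr7 and Ccr8 in sg-Ctrl cells alone and Ccr1 in KO cells alone. Over all protein-coding genes the shares were 19.4% and 20.0%, and 3.38% for KO cells alone. The share for sg-Ctrl cells alone is not given here. Such genes did occur, since 4247 were listed in sg-Ctrl cells and 4381 in KO cells, 741 of the latter in KO cells alone. The Ccr3 island, over the eotaxin receptor, was 13 kb long at 36.2 scaled reads per kb in sg-Ctrl cells and 55 kb long at 42.7 in KO cells. The KO island of Ccr1, a receptor of Ccl6 and Ccl9, was 62 kb long at a fold of 1.83. NUP210 was listed on Ccr2 and Ccr3 at folds of 0.928 and 1.07, against 25.6% of protein-coding genes listed. H3K4me3 was listed on 2 receptor genes in both libraries, against 52.2% of protein-coding genes in each. These were Ccr10 and Ccrl2, at log2 ratios of 0.05 and -0.64. The peaks used were 8.2 kb wide in sg-Ctrl cells and 5.4 kb in KO cells for Ccr10. For Ccrl2 they were 2.4 kb wide with 1805 reads and 4.2 kb wide with 2577 reads.

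The genes of 7 NF-kB and CCAAT-binding factors that are known to act on chemokine promoters had H3K4me3 in both libraries, against 52.2% of protein-coding genes. None had H3K27me3, against 19.4% in sg-Ctrl cells and 20.0% in KO cells. The median H3K4me3 log2 ratio of the 7 was -0.10, against -0.50 over all genes. Rel went from 1113 to 507 scaled reads per kb, a ratio of -1.14, Nfkb1 was at -0.92 and Cebpd at 0.00. The Rel peak was 5 kb wide with 5903 reads in sg-Ctrl cells and 7.8 kb wide with 5325 reads in KO cells. Its lower density was thus in part that of a wider peak. Cell type marker genes showed H3K4me3 on 5 of 6 epithelial markers, all but Krt5, and on 1 of 7 macrophage markers, Cd68. Cd68 was paired with 2 peaks in each library by the 4-kb rule, and whether these covered its start is not given here. H3K4me3 was on 0 of 3 T cell markers and on 2 of 4 fibroblast markers, Pdgfra and Col1a1. Over all protein-coding genes the H3K4me3 share was 52.2% in each library.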

How the data were processed

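ChIP-seq peak lists of 6 conditions, 1 library each, were analysed. Per the labels and the study's methods, the authors called peaks with SICER against an IgG library, with a window of 200 bp (H3K4me3) or 1000 bp (broad signals; the NPC setting is not given in the sources used here), and paired peaks with genes, within 4 kb of the start site for H3K4me3 and by gene body otherwise. The deposited columns used were the raw counts of ChIP and IgG reads per peak, the p-value and FDR, and the fold ratio of ChIP to IgG, normalised to library size by the authors. Islands that met no gene are not in the lists and were not analysed here. RNA-seq samples and the authors' processing of them were not analysed here.

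Each library's size relative to its IgG library was recovered from the deposited counts and fold (1.06 and 1.35 for H3K4me3 in sg-Ctrl and KO cells, 0.847 and 2.68 for H3K27me3, 1.01 for NUP210, 0.606 for NPC), and ChIP reads were divided by it and by peak length in kb. The depth of each library outside peaks is unknown. The KO libraries were 1.27 (H3K4me3) and 3.16 (H3K27me3) times as deep as the sg-Ctrl ones. Exact Poisson intervals for reads and exact binomial intervals for ratios, at 95%, cover counting error alone. Per-gene H3K4me3 ratios used each gene's densest peak in each library. The script was tested on simulated data. The start or the end of the gene model lay within 50 bp of that of GRCm38.p6 for 86.3% of 12758 genes. Positions of Ccl2, Ccl5, Ccl8, Ccl9, Ccl6, Ccl3 and Ccl12 came from RefSeq and the others from the lists. Promoters came from RefSeq, 5 of 10 members matched.

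Named genes were the members, genes with a peak within 200 kb of a block, and fixed lists of related genes. Of the related lists, 1 gene is not reported here. The members and lists were chosen with earlier results of these data known. Alternatives changed the FDR, fold, scaling, peak choice and flank. Computations ran in Python 3.11.15 with scipy 1.17.1 for intervals, pandas 2.3.3 and numpy 2.4.6 for tables, and matplotlib 3.10.9 for plots.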

Additional observations from a re-analysis of the deposited data

How the results depend on the processing

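No paired analysis was possible because each condition had 1 library and no result comes from a test. Of 32 alternatives over 11 results, 18 stayed near the reported value and 14 moved. An FDR of at most 0.01 moved no count of members. Requiring at least 2-fold over IgG left H3K27me3 on 0 members in sg-Ctrl cells and 1 in KO cells, NPC on 0, and a difference in H3K27me3 length (KO minus sg-Ctrl) of 0 kb at the proximal block, where 7 kb was reported. Requiring a peak over the start site left H3K4me3 on 1 member in sg-Ctrl cells and 0 in KO cells, and requiring at least 50% of the gene body to be covered left NPC on 0 (both chosen after seeing the data). The Ccl5 log2 ratio, reported as -0.30, turned in sign under 4 alternatives. It was 0.126 scaled by shared peaks and 0.0490 without scaling. From the total scaled reads of the gene's densest peak it was 0.0823, and from the fold over IgG 0.0823. In each of these Ccl5 stayed above the all-gene median, with 69.3% to 86.0% of genes below it. The length difference was 2 kb at the proximal block with flanks of 200 kb, and at the distal block 5.68 kb with flanks of 0 kb and 28 kb with flanks of 200 kb, against 31 kb reported. At the depth of single libraries a missing peak does not show a missing mark.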

Other observations

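The interval of 1346 kb between the blocks held 25 protein-coding genes, most of which carried listed H3K4me3, unlike the chemokine genes on either side. H3K4me3 was listed on 18 of them in sg-Ctrl cells and 19 in KO cells, H3K27me3 on 4 and 5, NUP210 on 7 and NPC on 4. Over all protein-coding genes the shares were 52.2% for H3K4me3 in each library, 19.4% and 20.0% for H3K27me3, 25.6% for NUP210 and 23.4% for NPC. An H3K4me3 ratio was available for 21 listed genes of the interval, which were not all among the 25 protein-coding genes. Their median was -0.59 on the log2 scale, against -0.50 over all genes. Of the 21, 1 gene was at least 2-fold lower and 0 were at least 2-fold higher.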
